A study of Mus musculus with 4 samples.

Results

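Immediate early and MAPK feedback genes were described in HT-22 cells, an immortal hippocampal cell line of the mouse, by poly(A) RNA-Seq. The members were 10 genes chosen by name, namely the AP-1 subunit genes Fos, Fosl1, Fosl2, Jun, Junb and Jund, the zinc finger gene Egr1, the response genes Ier2 and Ier3, and the phosphatase gene Dusp1. All 10 were present among the 11502 gene symbols of the deposited table, and 9 of them, all but Fos, had a mean of at least 1 FPKM and were among the 10604 genes compared. The study asked how PGC-1α changes the transcriptome of these cells at rest and after a hypoxic insult. There were 4 groups with 1 library each. The Ctrl group was labelled wild type and untreated, and by the study's methods carried a negative control lentivirus. The PGC-1α group overexpressed PGC-1α from a lentivirus. The Ctrl+OGD and PGC-1α+OGD groups were the same types of cells after 2 h of oxygen and glucose deprivation (OGD) without serum, followed by 24 h in normal medium. Transduced cells were selected with puromycin, and the promoter that drives PGC-1α was not given in the sources used here. With 1 library per group no p value was computed, and a difference between groups cannot be told apart from a difference between individual cultures or libraries.

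As background, immediate early genes are transcribed within minutes of a stimulus such as serum, growth factors, calcium entry or stress, without new protein synthesis. FOS proteins pair with JUN proteins through leucine zippers to form the transcription factor AP-1, and EGR1 binds GC-rich sites. Much of this transcription is driven by the ERK branch of the MAPK pathway through serum response factor (SRF) and its ETS partners, and DUSP and SPRY proteins induced by ERK feed back to dampen it. In hippocampal neurons several of these genes serve as markers of recent activity. Transcripts of most of them are short-lived, and the OGD libraries were taken 24 h after the insult.

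Each member was represented by 1 deposited transcript, so that no reads could be moved between isoforms within the table, and the sum over transcripts was the transcript itself. On GRCm38, Fos (ENSMUSG00000021250) lies on the plus strand of chromosome 12 from 85473890 to 85477273, and Jun (ENSMUSG00000052684) on the minus strand of chromosome 4 from 95049034 to 95052222. The transcripts of Ier2 (84661331 to 84662852, minus strand) and Junb (84976910 to 84978718, minus strand) are 314 kb apart on chromosome 8, which also holds Jund (70698949 to 70700616, plus strand). Ier3 (35821684 to 35822923, plus strand) and Dusp1 (26505590 to 26508519, minus strand) lie on chromosome 17, Fosl2 (32135801 to 32157842, plus strand) on chromosome 5, and Fosl1 (5447547 to 5455946, plus strand) on chromosome 19. The members were mostly compact and rich in GC. Their transcripts had a median length of 1927 bases, against 2799 bases over the genes compared, and a median GC content of 56.4%, against 50.4%. Fosl2 (6537 bases), Egr1 (4484 bases) and Jun (3189 bases) were longer than the median of the genes compared. Jun, Junb, Jund and Ier2 have a single exon, which makes 4 of 10 members (40.0%), against 2.44% of the genes compared. No other gene shared exon sequence with a member on the same strand. On the opposite strand, Ccdc85b overlaps Fosl1, Junos overlaps Jun and Gm11175 overlaps Jund. The libraries were stranded, but whether the counting used strand is not given in the sources used here.

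The stretch upstream of the deposited transcript is shown for 4 members, Junb, Ier3, Jun and Dusp1. Against Ctrl, Junb was lower both in PGC-1α and in Ctrl+OGD, Ier3 in PGC-1α and Jun in Ctrl+OGD, while Dusp1 stayed level. The sequences are from RefSeq (GRCm38.p6), which had a window for 7 of the 10 members, and for 5 of these (Fos besides the 4 shown) the RefSeq start lay within 100 bases of the start of the deposited transcript. The windows are chr8:84978749-84978998 on the minus strand for Junb, chr17:35821463-35821683 on the plus strand for Ier3, chr4:95052223-95052472 on the minus strand for Jun, and chr17:26508520-26508722 on the minus strand for Dusp1. The Junb window ends 30 bases before the deposited transcript, and those bases were not searched. The Ier3 and Dusp1 windows hold 221 and 203 bases, fewer than the 250 bases of the windows behind the shares given below. Each sequence is written from 5′ to 3′ along the gene, and capitals mark matches to the motifs named after the sequences.
Junb: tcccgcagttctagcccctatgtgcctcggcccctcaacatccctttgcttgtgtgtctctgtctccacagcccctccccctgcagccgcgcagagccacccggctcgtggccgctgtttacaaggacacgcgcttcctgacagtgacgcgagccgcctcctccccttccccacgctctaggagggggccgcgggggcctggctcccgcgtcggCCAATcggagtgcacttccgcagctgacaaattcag
Ier3: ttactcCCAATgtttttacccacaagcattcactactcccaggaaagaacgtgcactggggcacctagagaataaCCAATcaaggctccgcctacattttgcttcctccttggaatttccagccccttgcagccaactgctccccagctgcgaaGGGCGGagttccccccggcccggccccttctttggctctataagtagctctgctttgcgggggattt
Jun: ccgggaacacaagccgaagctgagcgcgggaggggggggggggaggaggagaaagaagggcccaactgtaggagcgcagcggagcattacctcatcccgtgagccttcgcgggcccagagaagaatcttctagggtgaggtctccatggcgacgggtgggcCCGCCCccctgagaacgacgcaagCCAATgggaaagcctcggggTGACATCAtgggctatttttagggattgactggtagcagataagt
Dusp1: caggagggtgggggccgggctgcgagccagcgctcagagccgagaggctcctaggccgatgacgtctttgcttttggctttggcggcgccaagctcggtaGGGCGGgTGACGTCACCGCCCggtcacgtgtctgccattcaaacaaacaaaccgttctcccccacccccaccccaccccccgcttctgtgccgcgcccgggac

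The 8 motifs were searched on both strands, CCAAT and GGGCGG having been added after these sequences were seen. The cAMP or AP-1 type element TGANNTCA was found in the windows of Jun, as TGACATCA, and Dusp1, as TGACGTCA, and in 11.9% of 32536 RefSeq windows of 250 bases, or 8.60% of the 10698 windows of genes compared, the share given second below. CCAAT was found upstream of Junb, Ier3 and Jun (33.8% and 36.2% of windows), and GGGCGG or its complement upstream of Fos, Jun, Ier3 and Dusp1 (33.0% and 59.0%). TATAAA was found upstream of Fos alone (12.3% and 5.87%). The CArG box, which SRF binds, was found in 1.48% and 1.04% of windows, TGANTCA in 6.73% and 4.36%, CCGGAA in 12.1% and 23.5%, and the EGR type element GCGNGGGCG in 4.74% and 8.85%, and these letters were not in the 5 windows examined. TGANNTCA and TGANTCA differ in length. In Dusp1 a CCGCCC directly follows TGACGTCA, so that the capitals there form 1 run.

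The column totals of the table lay between 331892 and 353381 FPKM, and the number of reads behind them is unknown. Ppargc1a, the overexpressed gene, was at 0.900 FPKM in Ctrl and 35.1 FPKM with PGC-1α, and after OGD at 0.103 and 8.41 FPKM, respectively, in the direction of the labels. The cell type label, hippocampal neurons, was checked against 15 neuron markers, of which 2 were present in the table, Syp at no more than 0.997 FPKM and Camk2a at up to 7.31 FPKM. Markers such as Rbfox3, Map2, Tubb3 and Snap25 were not found among the matched transcripts, whose highest value was in no case below 0.5 FPKM. Of 11 markers of glia and microglia, 5 were present, and of 10 mesenchymal markers 9 were present. Their levels differed widely, with Vim between 398 and 508 FPKM and Col1a1 between 156 and 198 FPKM in the 4 libraries. Col3a1 was only between 2.94 and 5.39 FPKM, Acta2 was at no more than 0.847 FPKM, and Thy1 was not found. The part of cell identity in the results below was not tested, and in such bulk samples fewer cells of a type and less RNA per cell cannot be told apart.

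The FOS family was led by Fosl1 and Fosl2, which encode the FOS-related proteins FRA1 and FRA2, and Fos itself was close to the lower end of the table. Fosl1 was at 41.7 FPKM in Ctrl and 42.4 FPKM with PGC-1α, and after OGD at 53.6 and 42.6 FPKM, respectively. Fosl2 was at 23.9, 21.3, 11.1 and 11.6 FPKM in the same order. Fosl2 was thus split by OGD, with both untreated libraries above both OGD libraries, whereas Fosl1 stood slightly higher in Ctrl+OGD alone. Fos was at 1.88 FPKM in Ctrl and 1.14 FPKM with PGC-1α, and after OGD at 0.718 and 0.00631 FPKM, respectively. With a mean of 0.936 FPKM, Fos missed the criterion for comparison, and its ratios are not read here.

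Of the JUN family, Jund, which encodes a subunit that is mostly made constitutively, had the highest level. Jund was at 71.5 FPKM in Ctrl and 84.7 FPKM with PGC-1α, and after OGD at 78.7 and 75.2 FPKM, respectively. Jun, the founding member of the family, was at 47.4, 35.1, 30.6 and 28.8 FPKM in the same order. Junb, which can oppose c-Jun at some promoters, was at 35.5, 22.6, 14.4 and 12.9 FPKM. Jun and Junb shared the same order of libraries, with Ctrl highest, PGC-1α next and both OGD libraries lowest. The highest level was 2.76 times the lowest for Junb, 1.64 times for Jun and 1.18 times for Jund.

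Egr1 set the Ctrl library apart from the other 3 more than any other member compared. This transcription factor gene was at 27.9 FPKM in Ctrl and 5.49 FPKM with PGC-1α, and after OGD at 4.14 and 3.45 FPKM, respectively. Ier2, whose product is a small nuclear regulator of transcription, was at 28.4, 13.7, 15.7 and 11.1 FPKM. Ier3, which modulates ERK signaling and cell survival, was at 24.6 FPKM in Ctrl and 12.1 FPKM with PGC-1α, and after OGD at 19.2 and 12.8 FPKM, respectively. The Ier3 levels followed the genotype, with both PGC-1α libraries below both control libraries. Dusp1, a nuclear phosphatase that inactivates p38, JNK and ERK, was at 3.29, 3.68, 3.43 and 3.57 FPKM, and its highest level was 1.12 times its lowest.

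**Figure D1:**
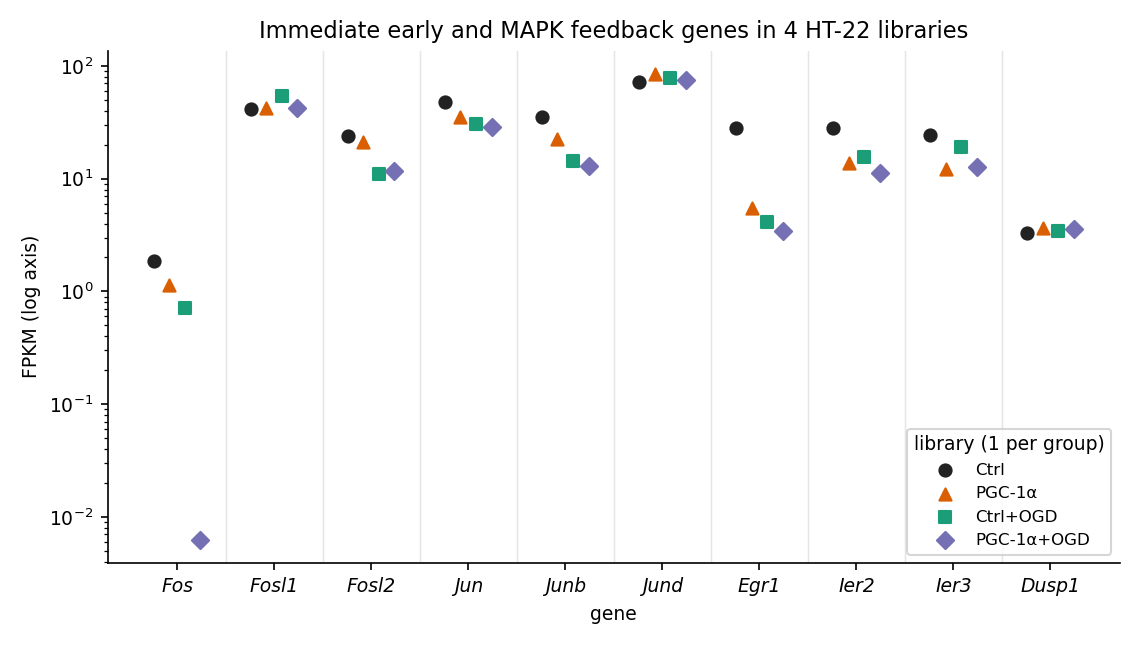
Level of each of the 10 genes in FPKM on a log axis, with 1 point per library and group. Egr1 has 1 high point at 27.9 FPKM in Ctrl and 3 points at or below 5.49 FPKM, while Jund, Fosl1 and Dusp1 have 4 points close together.

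Fold changes were computed as differences of log2(FPKM + 1), a scale that understates differences of weakly expressed genes. Genes past 1.5-fold in either direction are called higher or lower here, by the study's fold criterion without its p value. To show how far libraries differed for genes of the same kind, 1921 genes with 1 deposited transcript and a mean of 10 to 100 FPKM were used. This range holds the means of all members compared except Dusp1, that of Egr1 (10.3 FPKM) only through its Ctrl level. In this class, chosen after the data were seen, 95% of genes differed by no more than 0.64 on the log2 scale between the untreated libraries and 0.44 between the OGD libraries. For the effect of OGD the same limit was 0.75 in Ctrl cells and 0.53 in PGC-1α cells.

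In PGC-1α vs Ctrl, Egr1, Ier2, Ier3 and Junb were lower, which makes 4 of 9 members, and 0 were higher. Over all genes compared, 5.63% were lower and 4.91% were higher, and in the class of like genes 2.65% were lower. The Egr1 level in PGC-1α was 0.197 times that in Ctrl, a log2 difference of -2.16 that ranked 16 from the lowest among 10604 genes. Ier2 in PGC-1α was at 0.482 times its Ctrl level and Ier3 at 0.493 times. Junb differed by -0.63, which is within the 0.64 that held 95% of like genes. Jun (-0.42) and Fosl2 (-0.16) were below 0, and Jund (0.24), Dusp1 (0.13) and Fosl1 (0.02) above 0, all short of 1.5-fold. The median of the 9 members was -0.42, against -0.03 over all genes.

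With OGD in both arms (PGC-1α+OGD vs Ctrl+OGD), 0 of the 9 members were higher and 0 were lower by 1.5-fold, where 3.82% of all genes were lower and 3.08% higher. Of like genes, 1.56% were lower. Ier3 came closest with -0.55, a level in PGC-1α+OGD that was 0.666 times that in Ctrl+OGD, and it was called lower with a pseudocount of 0.01 (-0.59). Ier2 followed with -0.46 and Fosl1 with -0.32. The differences of Ier3 and Ier2 were larger than the 0.44 that held 95% of like genes. Egr1 differed by -0.21, Junb by -0.16 and Jun by -0.08. The median of the members was -0.16, against -0.01 over all genes. This comparison uses no library of PGC-1α vs Ctrl. In both, Ier2 and Ier3 were below 0 by more than the limit that held 95% of like genes, 0.44 here and 0.64 without OGD. These genes were singled out after their values were seen. The share of all genes beyond the limits in both was not computed, so this overlap is a description only.

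In Ctrl+OGD vs Ctrl, Egr1, Junb, Fosl2, Ier2 and Jun were lower, 5 of 9 members, and 0 were higher. The share of all genes compared was 7.71% lower and 6.20% higher, and 3.70% of like genes were lower. Egr1 in Ctrl+OGD stood at 0.148 times its Ctrl level, and its log2 difference of -2.49 ranked 9 from the lowest of 10604. Junb differed by -1.24 (0.406 times the Ctrl level), Fosl2 by -1.04 (0.463 times) and Ier2 by -0.81 (0.554 times). Jun differed by -0.62, within the 0.75 that held 95% of like genes. Ier3 (-0.34), Fosl1 (0.35), Jund (0.14) and Dusp1 (0.05) stayed within 1.5-fold. The median of the members was -0.62, against -0.02 over all genes. The Ctrl library is the reference both here and in PGC-1α vs Ctrl, so the low values of Egr1, Junb and Ier2 in these 2 comparisons rest on the same library.

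In PGC-1α+OGD vs PGC-1α, Fosl2 and Junb were lower, 2 of 9 members, and 0 were higher, while 5.22% of all genes were lower and 3.82% higher. Of like genes, 2.34% were lower. Fosl2 differed by -0.82 and Junb by -0.77, and both were beyond the 0.53 that held 95% of like genes. Egr1 differed by -0.55, just short of 1.5-fold on the log2(FPKM + 1) scale. Both Egr1 levels compared here, 5.49 FPKM in PGC-1α and 3.45 FPKM in PGC-1α+OGD, lay below the range of like genes, so their limit was not applied. The Egr1 level in PGC-1α+OGD was 0.628 times that in PGC-1α. Jun (-0.28), Ier2 (-0.27) and Jund (-0.17) were below 0, while Ier3 (0.07), Fosl1 (0.01) and Dusp1 (-0.03) lay near 0. The members had a median of -0.27, and all genes a median of 0.00. Fosl2 and Junb were therefore lower after OGD in both cell types, in 2 comparisons that share no library. The share of all genes lower in both was not computed, so this overlap is a description only.

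**Figure D2:**
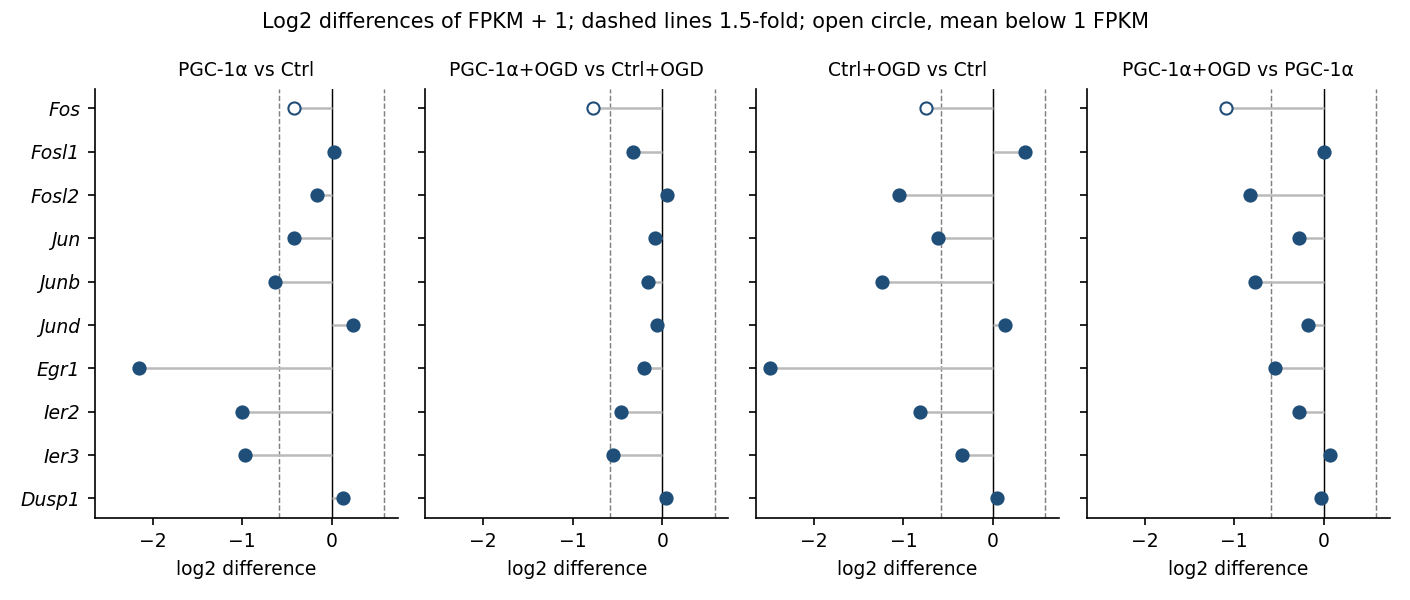
Log2 difference of FPKM + 1 for each gene in the 4 comparisons, with dashed lines at 1.5-fold and an open circle for Fos, whose mean was below 1 FPKM. Filled circles left of the dashed line number 4 (PGC-1α effect without OGD), 0 (with OGD), 5 (OGD effect in Ctrl cells) and 2 (in PGC-1α cells).

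The OGD change was also set side by side in the 2 cell types. The PGC-1α change minus the Ctrl change was 1.95 for Egr1, 0.54 for Ier2, 0.47 for Junb, 0.41 for Ier3, 0.34 for Jun and 0.22 for Fosl2, and it was -0.35 for Fosl1, -0.31 for Jund and -0.08 for Dusp1. The median over the 9 members was 0.34. For Egr1, the start levels differed (27.9 FPKM for Ctrl, 5.49 FPKM for PGC-1α cells), whereas the levels after OGD, 4.14 and 3.45 FPKM, were close. With 1 library per group these differences of differences could not be tested.

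**Figure D3:**
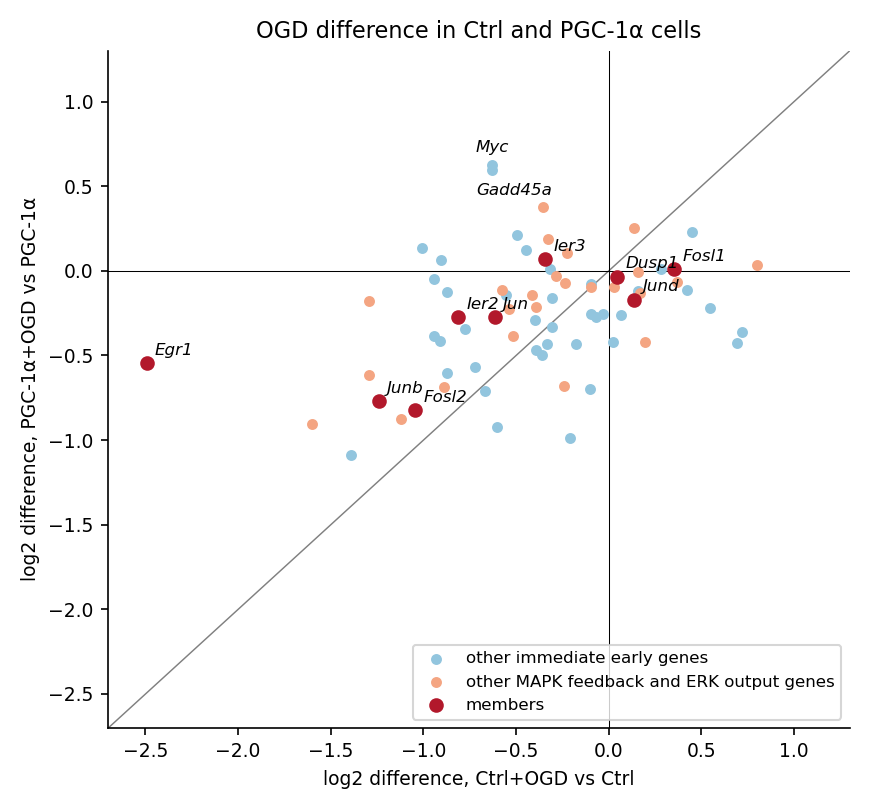
Log2 difference after OGD in Ctrl cells (horizontal axis) and in PGC-1α cells (vertical axis) for the members and for other immediate early and MAPK feedback genes, with the line of equal change. Egr1 lies far left of the line at -2.49 and -0.55, and Fosl2 and Junb lie in the lower left, at or below -0.77 on both axes.

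Summed over the family, JUN transcripts stood at 154 FPKM in Ctrl and 142 FPKM with PGC-1α, and at 124 and 117 FPKM after OGD. Jund made up 46.3% of this sum in Ctrl and 59.5% with PGC-1α, and 63.6% and 64.3% after OGD, while Junb went from 23.0% in Ctrl to 11.7% in Ctrl+OGD. The FOS family, with Fosb included, summed to 67.9 FPKM in Ctrl and 65.5 FPKM with PGC-1α, and after OGD at 65.5 and 54.6 FPKM, respectively. Fosl1 held 61.4% of the FOS family in Ctrl and 81.8% in Ctrl+OGD, 64.7% in PGC-1α and 78.1% in PGC-1α+OGD. The AP-1 transcripts of the OGD libraries were thus weighted to Fosl1 and Jund. FPKM is scaled by transcript length, so these are shares of transcripts and not of protein.

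**Figure D4:**
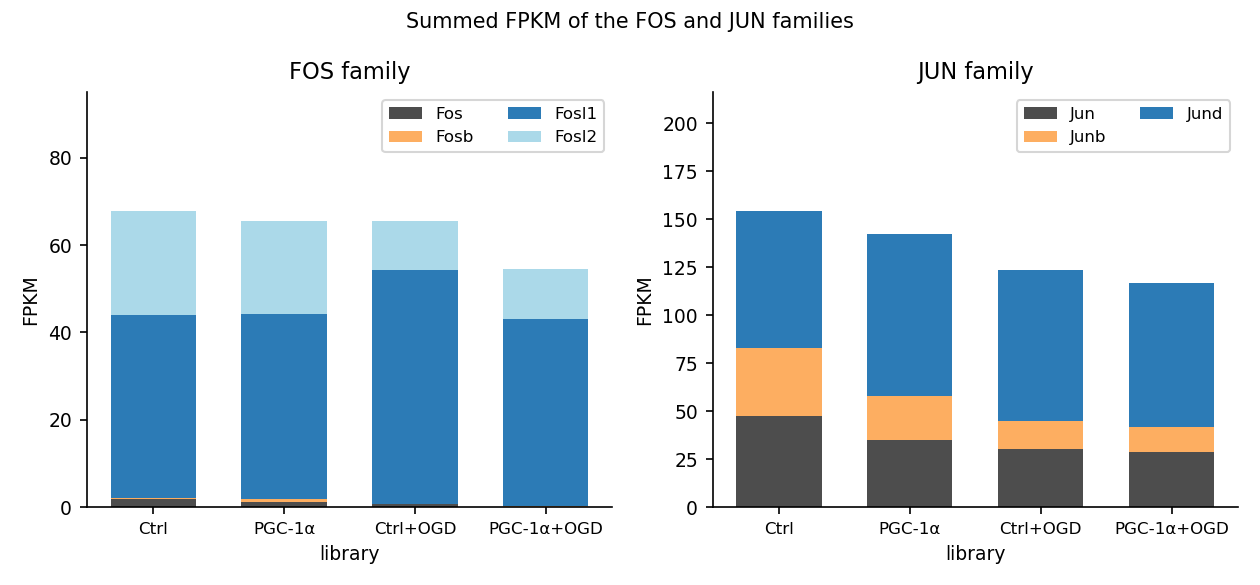
FPKM of the FOS family (left) and JUN family (right) in each library, stacked by gene from 0. The Fosl2 and Junb segments are smaller in both OGD libraries than in both untreated libraries, and the Jund segment stays between 71.5 and 84.7 FPKM.

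Across libraries, 6 of the 9 members compared had their highest level in Ctrl, namely Fosl2, Jun, Junb, Egr1, Ier2 and Ier3, where 34.5% of all genes compared did so. Fosl1 was highest in Ctrl+OGD, the place of 26.1% of all genes, and Jund and Dusp1 in PGC-1α, the place of 20.5%. The lowest level was in PGC-1α+OGD for Jun, Junb, Egr1 and Ier2, 4 of 9 members, against 23.0% of all genes. Fosl1, Jund and Dusp1 were lowest in Ctrl (28.2% of all genes), Fosl2 in Ctrl+OGD and Ier3 in PGC-1α.

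Further genes of the pathway were taken from lists that had been written with earlier results of these data known. Of 40 other immediate early genes compared, 11 were lower and 2 higher in PGC-1α vs Ctrl, and 14 were lower and 2 higher in Ctrl+OGD vs Ctrl. Over all genes compared, 5.63% were lower and 4.91% higher in PGC-1α vs Ctrl, and 7.71% and 6.20% in Ctrl+OGD vs Ctrl. In the first comparison the largest falls were those of Gadd45a, a DNA damage response gene (129 FPKM for Ctrl, 47.7 FPKM for PGC-1α), Ptgs2, which encodes cyclooxygenase-2 (3.72 and 0.886 FPKM), and Myc (77.5 and 33.0 FPKM). In the second they were those of Cebpd, a transcription factor gene of the acute response (51.1 FPKM in Ctrl and 18.9 FPKM in Ctrl+OGD), Ptgs2 (1.35 FPKM in Ctrl+OGD) and Plk2, a polo-like kinase gene (36.3 and 18.4 FPKM). Klf10 and Id3, which respond to TGF-β and BMP signals, were the 2 higher genes in both, with Klf10 at 15.6 FPKM in Ctrl, 32.0 FPKM in PGC-1α and 26.3 FPKM in Ctrl+OGD. In Ctrl, 27 of the 40 genes had their highest level, against 34.5% of all genes compared. In PGC-1α+OGD vs Ctrl+OGD 1 was lower (3.82% of all genes), the orphan nuclear receptor gene Nr4a2 (5.12 and 2.02 FPKM), and 0 were higher (3.08%). In PGC-1α+OGD vs PGC-1α 6 were lower (5.22% of all genes), led by Cebpd, Nr4a2 and Sik1, and 2 were higher (3.82%), Myc and Gadd45a. The list had a median of -0.23 for PGC-1α without OGD, -0.14 for PGC-1α with OGD, -0.35 for OGD in Ctrl cells and -0.27 for OGD in PGC-1α cells.

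Of 24 other MAPK feedback and ERK output genes compared, 3 were lower and 1 higher in PGC-1α vs Ctrl (5.63% and 4.91% of all genes). In Ctrl+OGD vs Ctrl, 5 were lower and 1 higher (7.71% and 6.20%). Dusp6, the cytoplasmic phosphatase of ERK, was at 39.8 FPKM in Ctrl and 17.2 FPKM with PGC-1α, and after OGD at 15.6 and 15.1 FPKM, respectively. Like Egr1, Dusp6 had 1 high library and 3 low ones. Dusp4, a nuclear phosphatase of ERK, was at 16.1, 9.94, 8.25 and 5.79 FPKM, and the ERK pathway inhibitor gene Spry4 at 16.7, 10.5, 6.22 and 6.53 FPKM. Dusp5 was at 5.08, 3.54, 1.01 and 1.43 FPKM, and Errfi1, an inhibitor of the EGF receptor, at 30.9, 30.3, 13.6 and 16.1 FPKM. Like Fosl2, each of the genes named here from Dusp6 to Errfi1 had both untreated libraries above both OGD libraries. These genes were named for their large changes, so the shared pattern follows in part from their choice. The share of all genes with this pattern was not computed. Dusp14 was the 1 higher gene in both comparisons with Ctrl, at 3.36 FPKM in Ctrl and between 6.60 and 6.97 FPKM in the other 3 libraries. In PGC-1α+OGD vs Ctrl+OGD 0 were lower and 0 higher (3.82% and 3.08% of all genes). In PGC-1α+OGD vs PGC-1α 5 were lower and 0 higher (5.22% and 3.82%). The medians of this list in the 4 comparisons, in the order given before, were -0.25, -0.06, -0.31 and -0.12.

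Of the genes that encode the cascade itself, a few were called in each direction. Of 34 genes of the RAS-ERK, JNK and p38 cascades, PGC-1α without OGD had 3 lower (Map2k3, Mapk8 and Mknk1) and 1 higher. Over all genes, 5.63% were lower and 4.91% higher. PGC-1α with OGD had 4 lower, with Rps6ka5 and Map2k3 among them, and 1 higher (3.82% and 3.08% of all genes). OGD in Ctrl cells had 4 lower, with Mknk1 and Map2k3 among them, and 3 higher, led by Map2k2 (7.71% and 6.20% of all genes). OGD in PGC-1α cells had 2 lower, with Ksr1, and 2 higher, Map2k2 and Mapk8 (5.22% and 3.82% of all genes). List medians in that order were -0.10, -0.06, -0.02 and 0.03. The same shares of all genes apply to the lists below. Of 8 other AP-1 and bZIP partner genes, 2 were lower in PGC-1α vs Ctrl, Batf2 and Mafk, 1 in PGC-1α+OGD vs PGC-1α, Maff, and 0 in the other 2 comparisons, and 0 were higher in any. Of 9 genes of SRF, its ETS and myocardin-related partners and the CREB group, 2 were lower in PGC-1α vs Ctrl, Atf1 and Crem, while Atf1, Creb1 and Crem, 3 genes, were higher in PGC-1α+OGD vs PGC-1α, and 0 passed 1.5-fold in the other 2 comparisons. Srf itself was between 12.5 and 16.5 FPKM in the 4 libraries. The part of the markers of other cell types in these values was not tested, and of the 8 mesenchymal markers compared 1 was higher and 1 lower with PGC-1α at rest (Col3a1 and Pdgfrb), and likewise with OGD in Ctrl cells (S100a4 and Fn1). S100a4 was lower with PGC-1α under OGD, Col3a1 and the astrocyte gene Aldh1l1 were lower with OGD in PGC-1α cells, and Camk2a was lower with OGD in Ctrl cells.

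**Figure D5:**
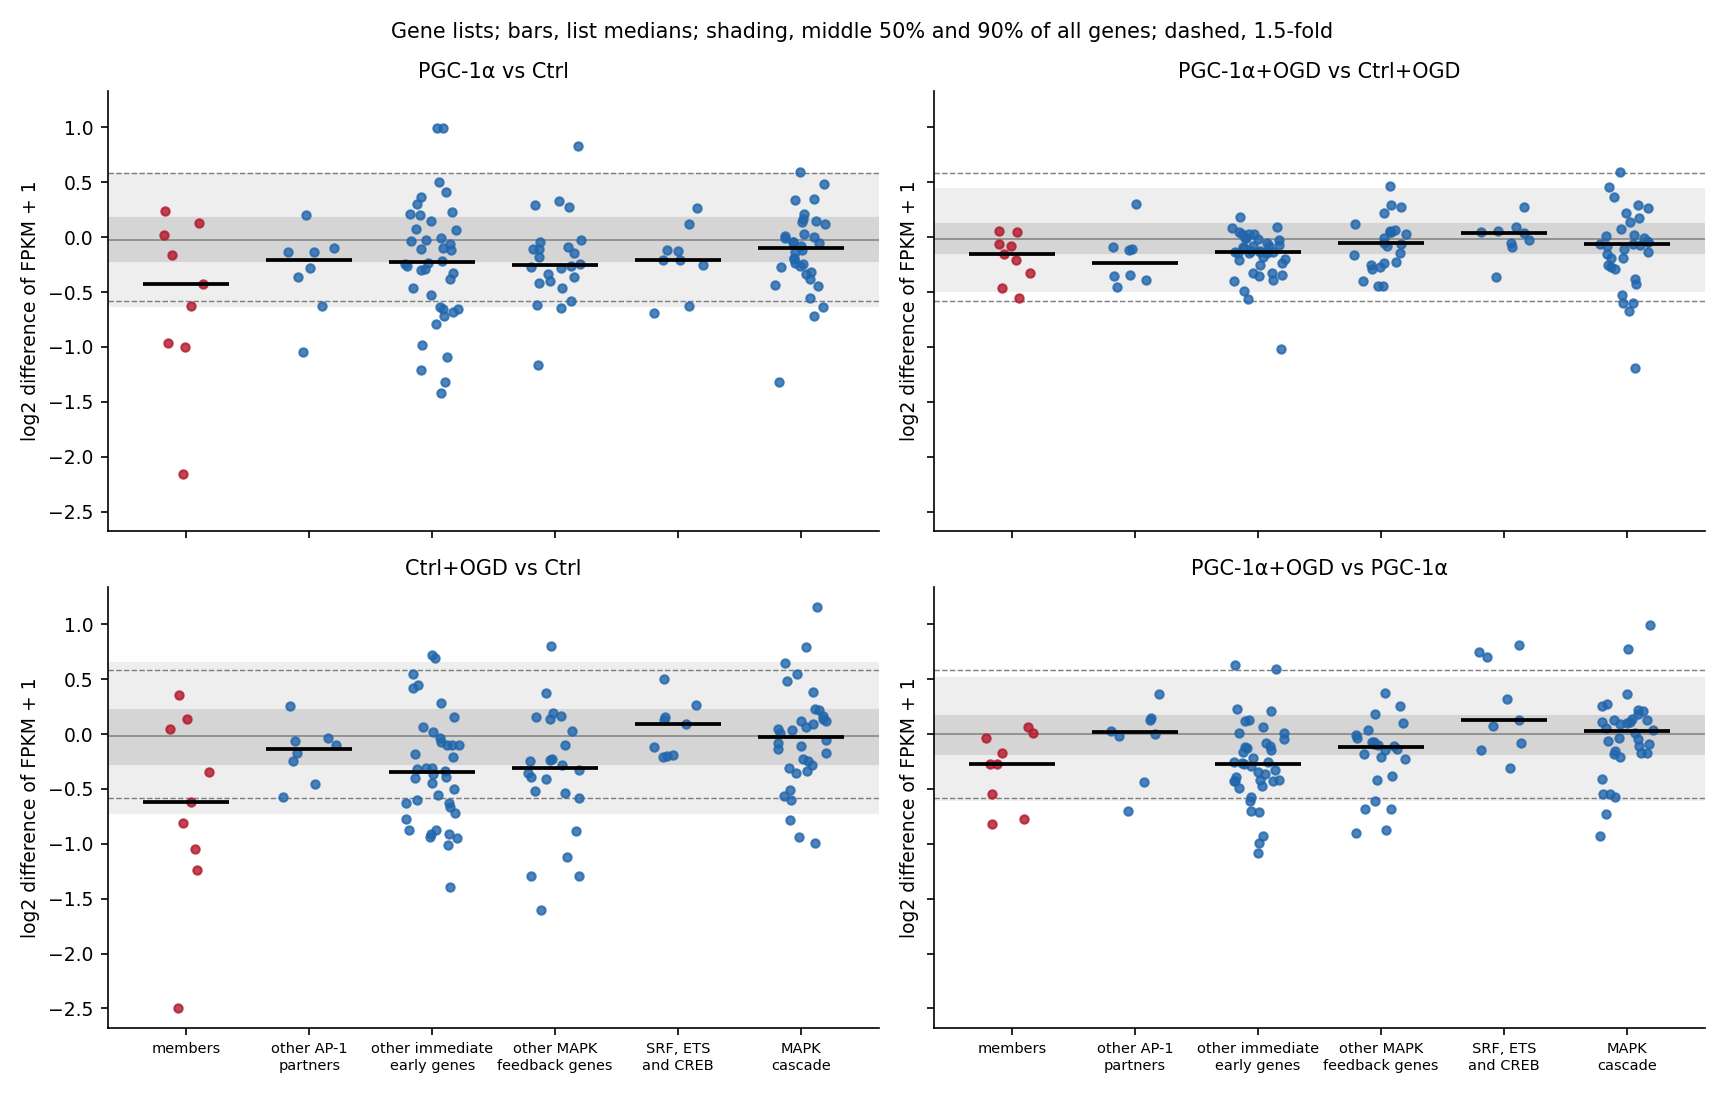
Log2 differences of FPKM + 1 for the members (red) and 5 lists of related genes (blue) in the 4 comparisons, with list medians as bars, central ranges of all genes shaded and 1.5-fold dashed. Against Ctrl, the members' median is the lowest of the 6 both with PGC-1α (-0.42) and with OGD (-0.62). Both medians rest on the same Ctrl library, and members and lists were chosen with earlier results of these data known.

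The genes whose pattern over the 4 libraries was most like the median profile of the members were Matn2, Col18a1, Maml3, Hacl1 and Ets2. Likeness was the Euclidean distance between centred log2 values, from 0.108 for Matn2 to 0.133 for Ets2, over the 8210 genes that averaged 5 FPKM or more. Ets2, an ETS transcription factor gene with 1 deposited transcript, was at 17.3 FPKM in Ctrl and 10.6 FPKM with PGC-1α, and after OGD at 10.5 and 8.76 FPKM, respectively. With 4 libraries many genes can follow such a profile, and the distances are a description.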

How the data were processed

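The 4 HT-22 libraries, 1 per condition, were grouped by title. Reads had been aligned by the authors with HISAT2 2.1.0 (GRCm38), who deposited 1 value per Ensembl transcript. These deposited numbers are read as FPKM from their range and totals, since the table does not name the unit, and the quantifier is not given in the sources used here. Identifiers without version were matched to GENCODE M21 (25822 of 25889 transcripts), transcripts were summed per symbol, and genes averaging 1 FPKM or more were compared as log2(FPKM + 1). Higher and lower mean a change of 1.5-fold. Named genes were the members, Ppargc1a, the 3 genes with the largest change per list and comparison, and the 5 genes of closest pattern, and further list genes (Dusp4, Dusp5, Dusp6, Dusp14, Spry4, Errfi1 in all libraries, Klf10, Id3, Srf) were named after their values were seen. A gene that meets this rule is not reported here. The members and lists were chosen with earlier results of these data known. Computation used matplotlib 3.10.9, pandas 2.3.3 and numpy 2.4.6 under Python 3.11.15 and was tested on simulated data. Alternatives were other pseudocounts, filters, scalings, fold changes, the highest transcript per gene, removal of a length and GC trend and, added after the data were seen, genes with 1 deposited transcript. Read depth is unknown, so no interval on a single value can be given.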

Additional observations from a re-analysis of the deposited data

Results flagged for a closer look

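Myc and Gadd45a moved in opposite directions after OGD in the 2 cell types, each past 1.5-fold. The log2 difference of Myc was -0.63 in Ctrl+OGD vs Ctrl and 0.63 in PGC-1α+OGD vs PGC-1α, and that of Gadd45a was -0.63 and 0.60. Myc was at 77.5 FPKM in Ctrl and 33.0 FPKM with PGC-1α, and after OGD at 49.8 and 51.5 FPKM, respectively, so that the 2 OGD libraries lay between the 2 untreated ones. Gadd45a, at 129, 47.7, 83.3 and 72.7 FPKM, also had both OGD libraries between the untreated ones. With 1 library per group the difference between the cell types was not tested. Of the 9 members compared, 0 moved past 1.5-fold in opposite directions. The share of all genes that did so was not computed, so this count is a description only.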

How the results depend on the processing

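Of 11 alternatives, 6 could change a member's log2 difference, since each member has 1 transcript and filters or the fold threshold leave the values as they are. Of 216 values under these 6, 207 moved by less than 0.1 on the log2 scale, 9 moved by more, and 0 of those past 1.5-fold changed sign. The members counted as lower were the same genes under the 3 scalings and after removal of the length and GC trend. In PGC-1α+OGD vs Ctrl+OGD, the count of lower members went from 0 to 1 with a pseudocount of 0.01 (Ier3) and to 1 without a filter on low values (Fos). Over all genes, 560 of 10604 and 466 of 11502 were lower under these settings, respectively. At 2-fold, 2 members were lower in PGC-1α vs Ctrl (Egr1 and Ier2), 3 in Ctrl+OGD vs Ctrl (Fosl2, Junb and Egr1) and 0 for OGD in PGC-1α cells. Of the 10604 genes compared, 162, 206 and 177 were lower at 2-fold in the same order. These changes in the members called follow from the settings. Without a pseudocount, the ratio was already past 1.5-fold for Ier3 in PGC-1α+OGD vs Ctrl+OGD (0.6657) and for Egr1 in PGC-1α+OGD vs PGC-1α (0.6277). In PGC-1α+OGD vs PGC-1α, pseudocounts of 0.1 and 0.01 added Egr1, and dropping the filter added Fos, which made 3. Over all genes, 767 and 805 of 10604 were lower with these pseudocounts, and 651 of 11502 without the filter. Dropping the filter also added Fos in Ctrl+OGD vs Ctrl, which made 6, where 927 of 11502 genes were lower. Counts over all genes moved more: in PGC-1α vs Ctrl the 521 higher and 597 lower genes became 814 and 971 with the highest transcript, and 156 and 162 at 2-fold. No paired analysis was possible because each group has 1 library and the labels give no replicate numbers, and no library could be left out. Under median ratio scaling, Junb in PGC-1α vs Ctrl and Jun in Ctrl+OGD vs Ctrl were close to the threshold, at -0.59 each.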

Other observations

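Among regulators upstream of the immediate early genes, Atf1, a CREB family factor, was at 60.6 FPKM in Ctrl and 37.1 FPKM with PGC-1α, and after OGD at 67.5 and 66.1 FPKM, respectively, so that the PGC-1α library stood below the other 3. Creb1 was at 8.72, 7.40, 12.8 and 13.1 FPKM in the same order, past 1.5-fold for OGD in PGC-1α cells and short of it in Ctrl cells. Of the kinase genes, Map2k2, which encodes the ERK kinase MEK2, stood at 60.8 and 67.4 FPKM in the untreated libraries, against 136 FPKM in both OGD libraries. Map2k3, which encodes a kinase of p38, was at 28.3 FPKM in Ctrl and 10.7 FPKM with PGC-1α, and after OGD at 14.3 and 9.13 FPKM, respectively. Ctrl was highest, as for Egr1 and Dusp6, but both PGC-1α libraries lay below both control libraries, as for Ier3.

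Egr2 and Egr3, which encode relatives of EGR1, also had their highest level in Ctrl. Egr3 was at 3.75 FPKM in Ctrl and 2.05 FPKM with PGC-1α, and after OGD at 1.53 and 1.29 FPKM, respectively. Egr2, at 1.12, 0.284, 0.110 and 0.195 FPKM, was below the criterion for comparison. Arc, a synaptic activity gene, was at 12.3, 7.47, 5.94 and 5.47 FPKM. These genes were chosen after their values were seen.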
